A study of Mus musculus with 4 samples.

Results

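Interstitial cells of Cajal (ICC) were looked for among single mesenchymal stromal cells (MSC) of mouse gut lamina propria, the connective tissue that carries the gut epithelium. The members, called ICC gate cells here, were selected on measured transcripts. A cell was taken when at least 1 unique molecular identifier (UMI, 1 counted RNA molecule) of *Kit* and at least 2 UMIs of *Kit* and *Ano1* together were present, with 0 UMIs of *Pdgfra*, *Ptprc* and *Pecam1*. Of 32216 cells that passed the cell filter (500 or more genes, 1000 or more UMIs, and no more than 10% of UMIs from mitochondrial genes), 65 met this rule. They comprised 1 cell of small intestine replicate 1, 0 of small intestine replicate 2, 15 of colon replicate 1 and 49 of colon replicate 2. Every group came from untreated female C57BL6/Nrj mice aged 8 to 10 weeks, with 3 mice pooled in each of 2 independent experiments, so that a library and not a mouse was the replicate. Muscularis externa, Peyer's patches and epithelium had been removed before sorting, and the sort kept live cells with integrin β1 that lacked CD45, Ter119, CD31, BP3, EpCAM and L1CAM. Most ICC of the gut lie within or beside the muscle that was removed, so the members are the cells with such transcripts left in the lamina propria preparation. 

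ICC are mesenchymal pacemakers of gut smooth muscle. They depend on signalling through the receptor KIT, and calcium released from internal stores opens the chloride channel anoctamin 1 (encoded by *Ano1*), which generates the slow waves that pass through gap junctions to muscle. ICC also sit close to enteric nerve endings and carry receptors for their transmitters, and the transcription factor ETV1 acts downstream of KIT in them.

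The 4 libraries held between 14341443 and 52269372 UMIs, and 92.1% of 34983 barcodes passed the filter. Replicate 1 was sequenced more deeply per cell, with a colonic median of 8826.5 UMIs in cells outside the gate against 3927 in replicate 2. Only 67 barcodes occurred in more than 1 library, and 0 barcodes of gate cells did. Scrublet, run per library, called 0 gate cells as doublets, but it called only 1 of 15263 cells in small intestine replicate 2 and so had not worked there.

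Gate cells were found almost entirely in colon. They made up 0.617% of the filtered cells of colon replicate 1 (15 of 2431, exact 95% Clopper-Pearson interval 0.346 to 1.02%) and 0.386% of colon replicate 2 (49 of 12688, 0.286 to 0.51%). In small intestine they made up 0.0545% of replicate 1 (1 of 1834, 0.00138 to 0.303%), while replicate 2 had 0 of 15263 cells, which allows a share of up to 0.0197% by the rule of 3 counts (exact upper limit 0.0242%). These intervals cover counting error only. The mean share was 0.502% ± 0.163 (SD, n = 2) in colon and 0.0273% ± 0.0386 (SD, n = 2) in small intestine, and both colonic shares lay above both small intestinal ones, although the intervals of small intestine replicate 1 and colon replicate 2 overlapped. With 2 libraries a side the two-sided exact permutation test gave p = 0.33, the smallest value this design allows. When each cell was thinned to 1000 UMIs, which left out 0 cells, 7 and 23 colonic cells and 0 small intestinal cells still met the rule, or 0.288% and 0.181% of the colon libraries.

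The share of muscle in the preparation also differed between intestines. Cells with at least 5 UMIs of the contractile genes *Myh11*, *Cnn1* and *Actg2* together and 0 UMIs of *Kit*, *Pdgfra*, *Ptprc* and *Pecam1* (contractile gate cells) made up 3.98% and 0.826% of small intestine replicates 1 and 2 and 12.2% and 6.69% of colon replicates 1 and 2. Per 100 contractile gate cells there were 1.37 and 0 ICC gate cells in small intestine and 5.07 and 5.77 in colon. The part of the remaining muscle layer in the colonic share was not tested.

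**Figure D1:**
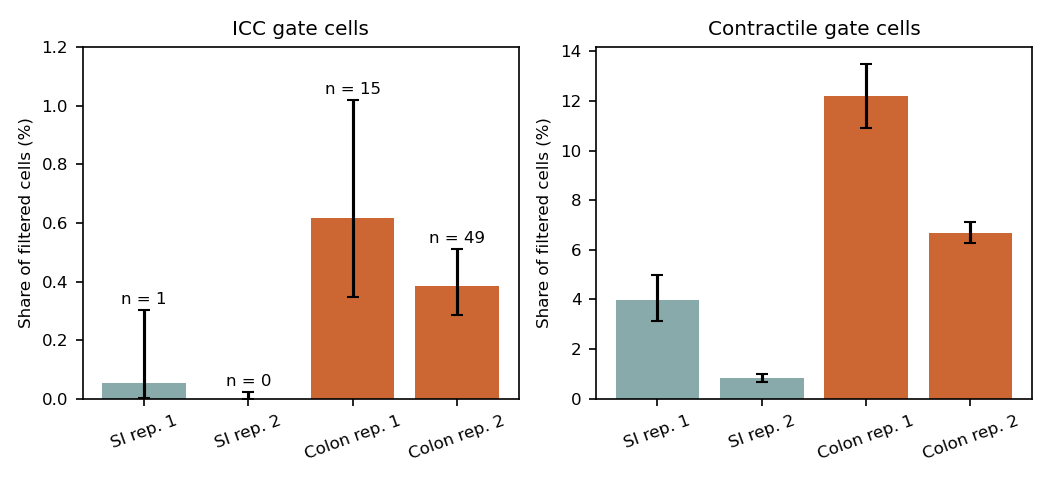
Share of filtered cells (percent) in each library, for ICC gate cells and for contractile gate cells, with bars giving the share and lines its exact 95% interval. Both colon libraries (0.617% and 0.386%) lie above both small intestinal ones (0.0545% and 0%), and contractile cells are also more frequent in colon.

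The only small intestinal member did not carry the transcripts of ICC. It held 3 *Kit* UMIs and 0 UMIs each of *Ano1*, *Etv1* and *Gja1* among 4878 UMIs. It held 40 UMIs of *Il22*, 36 of *Il17f* and 21 of *Tnfsf11*, which encode cytokines, together with 17 of *Cd7*, 9 of *Il2rg* and 4 of *Il7r*, all genes of innate or T lymphocytes. It is counted in the shares above because the rule took it, and it is not called an ICC in what follows. *Ano1* was absent from all *Kit*-positive cells of small intestine, of which there were 31 in replicate 1 and 14 in replicate 2.

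One colonic member also stood apart. This cell of replicate 2 held 1 UMI each of *Kit* and *Ano1* among 12011 UMIs, the most of any member in that library, and 135 UMIs of a list of epithelial markers. *Agr2* (160 UMIs), *Spink4* (130), *Reg4* (64) and *Epcam* (28), which are genes of secretory epithelium or of epithelium in general, were among its transcripts. Counts of called genes are therefore also given for the colon libraries without this cell, which leaves 15 and 48 members (the colon fit below). That fit was added after the data had been seen.

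The genes that chose the cells are described without a test. In colon replicate 1 a member held 1 to 33 *Kit* UMIs (median 10) and 4 to 25 *Ano1* UMIs (median 14). In colon replicate 2 it held 1 to 16 *Kit* UMIs (median 4) and 1 to 16 *Ano1* UMIs (median 5). The 15 members of replicate 1 had a median of 11494 UMIs and the 49 of replicate 2 a median of 3861, so the lower numbers in replicate 2 go with fewer UMIs per cell. At the threshold, 4 members of colon replicate 2 held exactly 2 UMIs of *Kit* and *Ano1*, 5 held 3 and 40 held at least 4, and in replicate 1 the lowest sum was 6. Just outside it, 4 cells of replicate 2 and 1 of replicate 1 held 1 *Kit* UMI and no *Ano1*. A further 7 cells of replicate 2 reached the *Kit* and *Ano1* threshold but held *Pdgfra*, and 4 of these 7 had a *Prkcq* UMI and all 7 a *Gja1* UMI. Of the 4 members with 2 UMIs, one of which is the cell with epithelial transcripts, *Pcp4* was found in 1 and *Gja1* in 2, and of the 5 members with 3 UMIs *Pcp4* was found in 4 and *Gja1* in 5.

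**Figure D2:**
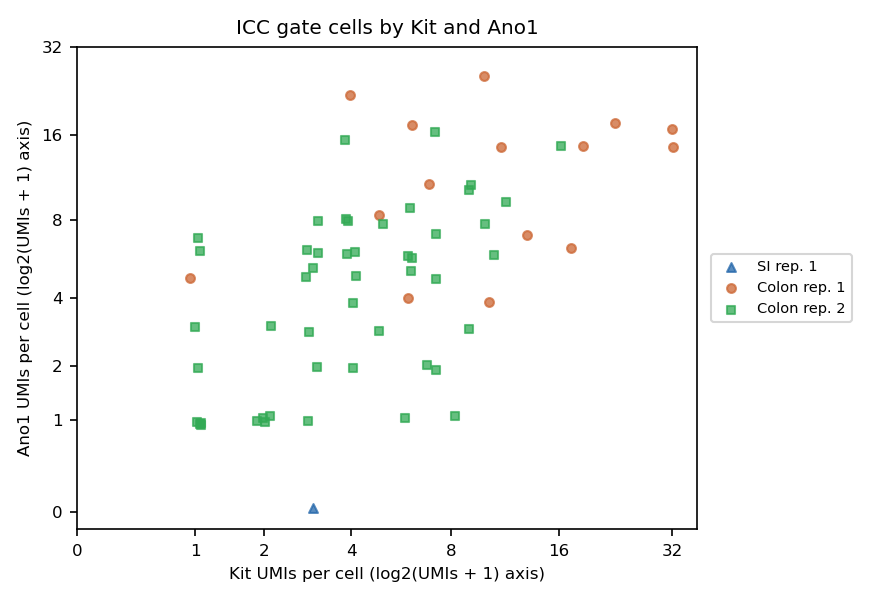
*Kit* against *Ano1* UMIs in each ICC gate cell (both axes on a log2(UMIs + 1) scale), by library, with points moved slightly apart where they coincide. Members of colon replicate 1 reach 33 *Kit* and 25 *Ano1* UMIs, those of colon replicate 2 reach 16 of each, and the small intestinal member sits at 3 *Kit* UMIs without *Ano1*.

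Some genes known from ICC that the rule did not use were present in most colonic members, and others were nearly absent. *Gja1*, which encodes the gap junction protein connexin 43, was found in 15 of 15 members of colon replicate 1 and 47 of 49 of replicate 2. Its level, as UMIs per 1000000 UMIs summed over the cells of a class (CPM), was 1602 CPM in replicate 1 and 987 CPM in replicate 2, against 214 and 151 CPM in all other cells of the same libraries. *Etv1* was found in 9 of 15 and 25 of 49 members, at 89.3 and 316 CPM against 52.6 and 32.2 CPM in the other cells. *Etv1* was also found in 40.9% and 14.9% of the fibroblasts with *Pdgfra* in the same libraries, so its presence alone did not set members apart. *Hcn4*, a pacemaker channel, was found in 0 and 1 members, and the substance P receptor *Tacr1* in 1 and 0.

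Most marker lists of other cells were low in the members, whereas smooth muscle, pericyte and some immune transcripts were not. The fibroblast list (8 genes such as *Col1a1*, *Col3a1* and *Dcn*) summed to 704 and 2757.7 CPM in the members of colon replicates 1 and 2, against 21917.9 and 26143.7 CPM in all other cells. The endothelial list summed to 0 and 1 UMIs, the glial list to 1 and 3, the neuronal list to 2 and 0, and the mast cell list, whose cells also carry *Kit*, to 0 and 4, with all 4 of those UMIs in the cell with epithelial transcripts. Plasma cell genes were at 0 UMIs in both libraries, and the immune list summed to 6 and 12 UMIs, or 31.5 and 58.4 CPM against 28.4 and 15.3 CPM in all other cells. These UMIs were mostly of *Lyz2*, a lysozyme gene of myeloid cells (6 and 11 UMIs), which was called higher in the colon fit (log2 fold change 1.67, adjusted p = 0.0121, edgeR). The 135 epithelial UMIs and 11 mesothelial UMIs of replicate 2 all lay in the cell with epithelial transcripts, and replicate 1 had 0 of each. The smooth muscle list (10 genes such as *Acta2*, *Tagln* and *Myh11*) reached 12297.4 and 3574.8 CPM, against 7841.1 and 3260.9 CPM in all other cells and 47248.9 and 34790.0 CPM in contractile gate cells. Of the 2341 smooth muscle UMIs of replicate 1, 1036 came from the member with the most UMIs (27683). The pericyte list of 7 genes summed to 1980.4 and 2033.0 CPM against 430 and 145 CPM in all other cells, and 3 of its genes, *Rgs5*, *Kcnj8* and *Abcc9*, were called higher in the colon fit. *Rgs5*, a regulator of G-protein signalling, was found in 15 of 15 and 44 of 49 members at 1266 and 1746 CPM, and the potassium channel gene *Kcnj8* stood at 531 and 141 CPM against 77.3 and 26.2 CPM. Of the same list, *Notch3*, *Higd1b* and *Ndufa4l2* were at 0 UMIs in all colonic members. Whether RNA of muscle or pericytes adds to these levels was not tested.

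Which genes differed between members and the rest of the same libraries was asked with the quasi-likelihood test of edgeR on counts summed per library and class, with library as a block. The 3 libraries that held a member entered, including the single small intestinal cell. A call needed an adjusted p (Benjamini-Hochberg) below 0.05 together with a log2 fold change over 1.5 in either direction. Of 11916 genes tested, 393 (3.3%) were higher and 937 (7.86%) lower in gate cells (11.2% in either direction), and the median log2 fold change over all tested genes was -0.27. In the colon fit 490 of 12688 genes (3.86%) were higher and 1101 (8.68%) lower (12.5% in either direction), with a median of -0.19. In the colon fit a gene could pass the low-count filter through the members alone, and such a gene had to be higher in them. Both fits shared 327 higher genes, or 83.2% of the first list and 66.7% of the second, and 845 lower genes, or 90.2% and 76.7%. The counts rested on both colon libraries: without colon replicate 1 there were 145 higher and 0 lower genes (996 genes at an unadjusted p under 0.05), and without colon replicate 2 there were 147 and 8. With DESeq2 in place of edgeR 197 genes were higher and 358 lower. In the colon fit the p-values measure the spread between 2 pooled experiments. In the first fit that spread also takes in the single small intestinal cell, which did not carry the transcripts of ICC.

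*Pcp4*, which encodes a small calmodulin-binding protein, was among the genes with the largest difference. It stood at 1975 CPM in the members of colon replicate 1 and 1328 CPM in those of replicate 2, against 2.9 and 1.73 CPM in all other cells, a log2 fold change of 8.48 ± 1.36 (SE, adjusted p = 5.54e-08, edgeR). *Pcp4* was detected in 14 of 15 and 23 of 49 members, and in 0.0676% and 0.229% of fibroblasts with *Pdgfra*, whose median depths were 9973 and 4266 UMIs. *Nog*, the secreted BMP antagonist noggin, was at 504 and 355 CPM against 0.875 and 2.8 CPM (7.52 ± 0.74, adjusted p = 2.35e-21, edgeR). It was detected in 14 of 15 and 22 of 49 members, so that both genes were found in most members of replicate 1 and in fewer of replicate 2.

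Further genes were called higher in the members. *Cpe*, carboxypeptidase E, which trims peptide hormones, was at 1760 and 647 CPM against 21 and 7.2 CPM, and was found in 15 of 15 and 34 of 49 members. *Slc38a1*, an amino acid transporter, was at 236 and 175 CPM against 0.599 and 0.311 CPM (log2 fold change 7.27 ± 0.49). *Slc4a4*, a sodium bicarbonate cotransporter, was at 294 and 268 CPM against 4.65 and 9.17 CPM (4.73 ± 0.49). *Lrig1*, an inhibitor of receptor tyrosine kinase signalling, was at 1229 and 340 CPM against 15.3 and 8.89 CPM (4.52 ± 0.93), and *Satb1*, a chromatin organizer, at 856 and 511 CPM against 17.4 and 12.7 CPM (4.66 ± 0.85). The remaining called genes with the largest folds were *Hoxb5os*, *Pdzrn4*, *Dgkg*, *Aldh1b1*, *Ccdc184* and *Cela1*, with log2 fold changes from 5.14 to 6.84. In the same range, the UMIs of *Mptx1* (431 of 431 in colon replicate 2), *Klk1* (63 of 63) and *Agr2* (160 of 160) came from the single cell with epithelial transcripts, and they describe that cell alone.

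Several genes were so rare outside the gate that they could be tested only in the colon fit, which they entered through the members alone, so they are given as levels without a test. *Hand1*, a basic helix-loop-helix transcription factor, was at 888 and 545 CPM in members against 0.507 and 0.603 CPM (11 and 31 UMIs) in all other cells. It was detected in 15 of 15 and 28 of 49 members, and in 0 of 1480 and 0.138% of fibroblasts with *Pdgfra*. *Cckar*, the receptor for cholecystokinin, was at 840 and 131 CPM against 0.415 and 0.117 CPM (9 and 6 UMIs). The bile acid receptor gene *Gpbar1* was at 257 and 117 CPM against 0.138 and 0.0584 CPM (3 and 3 UMIs), and *Kcnip4*, a potassium channel interacting protein, at 289 and 122 CPM against 2 and 5 UMIs in all other cells.

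Promoter windows are shown for 3 genes: *Pcp4* marked one set of members, *Prkcq*, encoding protein kinase C theta, marked another set described further on, and *Nkx3-2* is a gut mesenchyme transcription factor that was higher in members. Each holds 250 bases before and 50 after the RefSeq start in GRCm38.p6, read 5′ to 3′ on the strand of the gene. Capitals mark the letters CCGGAA, the core bound by ETS factors such as ETV1, searched on both strands.
*Pcp4*, chr16:96467356-96467655, plus strand: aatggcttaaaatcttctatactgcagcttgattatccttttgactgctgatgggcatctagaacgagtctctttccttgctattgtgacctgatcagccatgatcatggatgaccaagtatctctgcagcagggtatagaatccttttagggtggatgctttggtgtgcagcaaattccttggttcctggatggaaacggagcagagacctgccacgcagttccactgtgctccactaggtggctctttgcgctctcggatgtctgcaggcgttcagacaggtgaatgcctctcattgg
*Prkcq*, chr2:11172132-11172431, plus strand: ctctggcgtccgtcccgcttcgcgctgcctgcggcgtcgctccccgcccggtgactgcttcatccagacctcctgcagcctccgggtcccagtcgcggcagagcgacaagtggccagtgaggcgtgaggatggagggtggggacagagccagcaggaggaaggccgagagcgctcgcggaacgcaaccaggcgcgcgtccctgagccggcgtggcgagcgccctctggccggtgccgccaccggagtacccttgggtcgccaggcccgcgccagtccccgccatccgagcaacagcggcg
*Nkx3-2*, chr5:41764171-41764470, minus strand: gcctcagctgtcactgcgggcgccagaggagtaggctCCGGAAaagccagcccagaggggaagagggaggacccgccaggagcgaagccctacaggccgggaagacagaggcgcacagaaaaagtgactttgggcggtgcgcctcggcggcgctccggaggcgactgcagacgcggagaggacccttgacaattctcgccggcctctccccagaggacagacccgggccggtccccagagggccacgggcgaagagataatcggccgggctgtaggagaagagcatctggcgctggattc
These letters occurred once in the window of *Nkx3-2* and not in the other two. They were present in 14.9% of all 32851 windows of this length, in windows of 32% of 9097 tested genes and of 13.9% of 310 genes that were higher in members. A match is a description of the letters and not of binding.

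**Figure D3:**
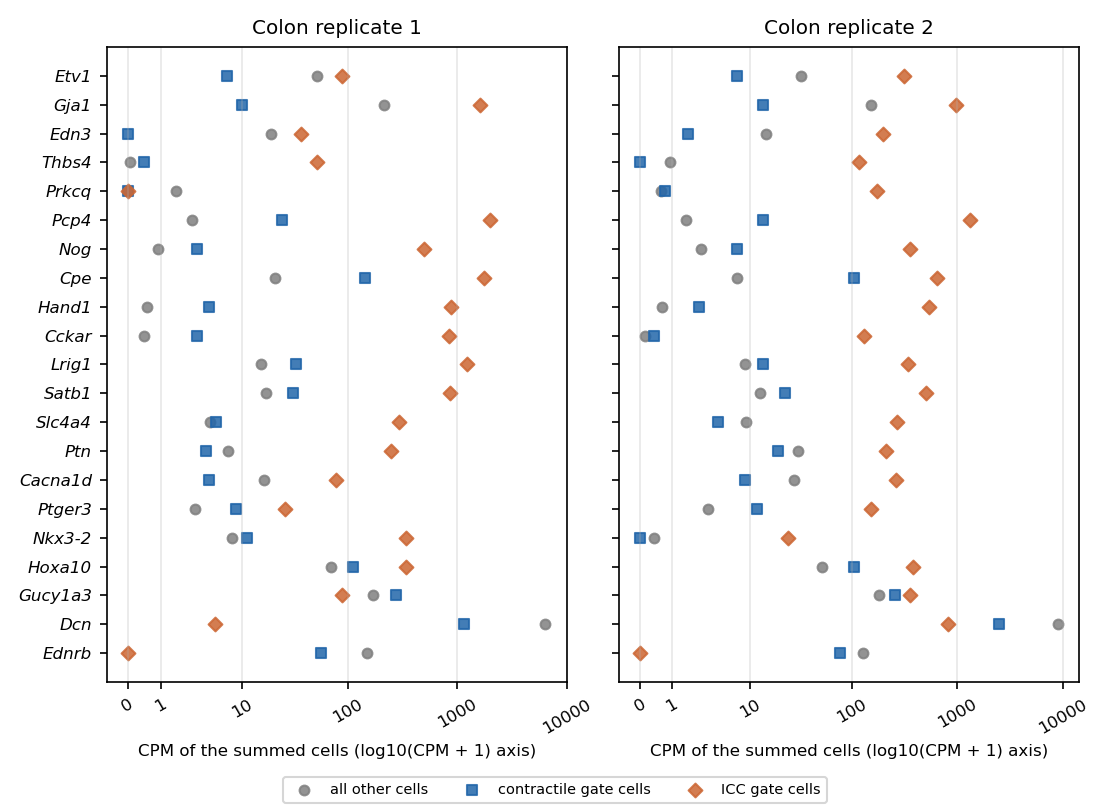
Level of 21 genes in ICC gate cells, contractile gate cells and all other cells, as CPM of the summed cells on a log10(CPM + 1) axis, one panel per colon library. *Pcp4*, *Nog*, *Hand1* and *Cckar* are above 100 CPM in members and below 3 CPM in all other cells of both libraries, whereas *Prkcq* is at 0 in members of replicate 1 and *Ednrb* at 0 in members of both.

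Genes with roles in ICC were also read as lists. Of the 13 genes of the ICC identity list, 10 could be tested, 4 were higher (*Cacna1h*, *Edn3*, *Etv1* and *Slc12a2*) and 0 lower, where 3.3% and 7.86% of all tested genes were. The median log2 fold change was 1.60, against -0.27 over all tested genes. In the colon fit 7 of 12 were higher, with *Gja1*, *Prkcq* and *Thbs4* in addition, where 3.86% of all tested genes were, and the median was 2.12. Of these, *Thbs4* had 1 and 48 UMIs in all other cells. It passed the low-count filter through the members and could only be higher. *Slc12a2*, a sodium potassium chloride cotransporter that loads cells with chloride, was at 52.5 and 501 CPM against 24.5 and 32.1 CPM (2.27 ± 0.58), a difference carried mostly by replicate 2. *Edn3*, the ligand endothelin 3, was at 36.8 and 199 CPM against 19.1 and 14.7 CPM (2.20 ± 0.46), also carried mostly by replicate 2. The call for *Etv1* (1.57 ± 0.52, adjusted p = 0.0259, edgeR) also rested on replicate 2: without that library its log2 fold change was -0.07. *Gja1* reached 1.64 ± 0.97 (adjusted p = 0.334, edgeR) with the small intestinal cell, which has 0 UMIs of it, and 2.41 ± 0.26 (adjusted p = 3.96e-18, edgeR) in the colon fit.

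Channels and calcium handling genes came next. Of 23 tested membrane channels and transporters 9 were higher and 1 lower (median 1.34), where 11.2% of all tested genes were called in either direction. In the colon fit 10 of 23 were higher and 1 lower, without *Clcn3*, of which the small intestinal cell held 6 UMIs (log2 fold change 1.10, adjusted p = 0.218, edgeR). Those higher included the L-type calcium channel genes *Cacna1c* and *Cacna1d*, with log2 fold changes of 2.78 ± 0.50 and 2.28 ± 0.45, their beta subunit *Cacnb2* (3.97 ± 0.42), the T-type channel *Cacna1h* (2.42 ± 0.50) and the potassium channel *Kcnh2* (3.07 ± 0.43). *Kcnn3*, a calcium-activated potassium channel of the PDGFRα-positive interstitial cells, was lower, at 0 UMIs in the members and at least 2.92-fold lower than in all other cells. Cells with *Pdgfra* were kept out of the gate, so this call describes what the rule left out. Of 17 tested genes of the pacemaker calcium list 3 were higher (4 of 18 in the colon fit, with *Slc8a1* in addition), namely the calcium pump *Atp2a3* (2.24 ± 0.47), the calcium release channel *Ryr2* (5.29 ± 0.84) and the store sensor *Stim2* (1.65 ± 0.45), and the release channel *Itpr2* was lower (-3.25 ± 1.02). The call of *Atp2a3* was lost without colon replicate 2, where its log2 fold change was -0.01. *Ryr2* had only 3 and 5 UMIs in the members of colon replicates 1 and 2, and 6 and 12 in all other cells. The median of the list was 0.67, and the remaining 13 genes did not pass.

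Transmitter receptors and genes of the nitric oxide pathway gave calls in both directions. Of 19 tested, 2 were higher and 5 lower, where 3.3% and 7.86% of all tested genes were (median -0.71, or -0.69 with genes at 0 UMIs set to their bound). The higher genes were *Prkg1*, the cyclic GMP dependent kinase that acts below nitric oxide (173 and 112 CPM against 17.2 and 12.1 CPM, 2.72 ± 0.43), and *Ptger3*, a prostaglandin E2 receptor (26.3 and 151 CPM against 3.09 and 3.41 CPM, 4.13 ± 0.54). The lower genes were *Ednra*, *Ednrb*, *Npr1*, *Ptger2* and *Ptger4*. *Ednrb*, the endothelin B receptor, was at 0 UMIs in the 64 colonic members against 149 and 129 CPM in all other cells, at least 17.8-fold lower. The colon fit called 5 higher (*Cckar*, *Htr2b* and *Pde3a* in addition) and 5 lower of 23. Of these, *Cckar* entered that fit through the members alone and could only be higher. The guanylyl cyclase subunits that sense nitric oxide, *Gucy1a3* (89.3 and 355 CPM against 172 and 183 CPM) and *Gucy1b3*, did not pass, with log2 fold changes of -0.69 ± 0.76 and -0.71 ± 0.65.

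Signalling genes below KIT gave 2 calls and adhesion genes 4, where 11.2% of all tested genes were called. Of 25 genes of the KIT and ERK list, all tested, 2 were higher and 0 lower (median -0.09): *Etv1* and its relative *Etv5* (73.5 and 34 CPM against 10.2 and 7.53 CPM, 2.02 ± 0.50). In the colon fit *Spry2*, a feedback inhibitor of the pathway, was also called, as lower. Of 13 tested genes of gap junctions and adhesion 1 was higher (the caveolin gene *Cav2*, 1.94 ± 0.58) and 3 lower, among them *Jup* (-3.21 ± 0.77), which encodes the junction protein plakoglobin. *Cav2*, *Gja1* and *Sdpr* were higher and 3 genes lower of 13 in the colon fit.

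Regulators of position and of gut mesenchyme were read next. Of 39 Hox genes 24 were tested, 12 were higher and 0 lower, with a median log2 fold change of 2.06. Of all tested genes 3.3% were higher and 7.86% lower (3.86% and 8.68% in the colon fit). *Hoxa10* was at 341 and 384 CPM against 69.7 and 52.2 CPM (2.16 ± 0.63), *Hoxb2* at 131 and 102 CPM against 10 and 7.24 CPM (2.96 ± 0.43), and *Hoxd11* at 163 and 117 CPM against 17.9 and 21.3 CPM (2.39 ± 0.43). The colon fit called 9 of 24 higher and 0 lower, without *Hoxb6*, *Hoxd4* and *Hoxd13*, and with at most 5% mitochondrial UMIs the log2 fold change of *Hoxd13* was -0.07. Of 23 tested transcription factors of gut mesenchyme 3 were higher and 7 lower (median -0.13), and in the colon fit 5 and 9 of 25. Among those 5, *Hand1* entered the colon fit through the members alone and could only be higher. The 3 higher ones of the first fit were *Etv1*, *Hand2* (26.3 and 53.5 CPM against 7.23 and 4.98 CPM, 2.21 ± 0.55) and *Nkx3-2* (341 and 24.3 CPM against 7.92 and 0.37 CPM, 4.92 ± 0.53). The lower ones included *Myocd*, the coactivator of smooth muscle genes, and *Tbx2*, both at 0 UMIs in colonic members and at least 1.44-fold and 7.4-fold lower than in all other cells.

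Genes for ligands and matrix were mostly lower. Of 29 tested, 3 were higher (*Edn3*, *Ptn* and *Sema3a*) and 15 lower, where 3.3% and 7.86% of all tested genes were. The median was -2.97, or -2.65 with genes at 0 UMIs set to their bound. The colon fit called 4 of 31 higher and 17 lower, where 3.86% and 8.68% of all tested genes were. *Ptn*, the growth factor pleiotrophin, was at 247 and 214 CPM against 7.14 and 30.1 CPM (3.41 ± 0.46). The lower genes included the BMP ligands *Bmp2* and *Bmp5*, the WNT ligands *Wnt4* and *Wnt5a*, the laminin chains *Lama2* and *Lama4*, and *Fgf7* and *Nrg1*, which were at 0 UMIs in colonic members and at least 11.4-fold and 17.5-fold lower. The rule kept out cells with *Pdgfra*, so lower genes that such cells carry describe what it left out.

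**Figure D4:**
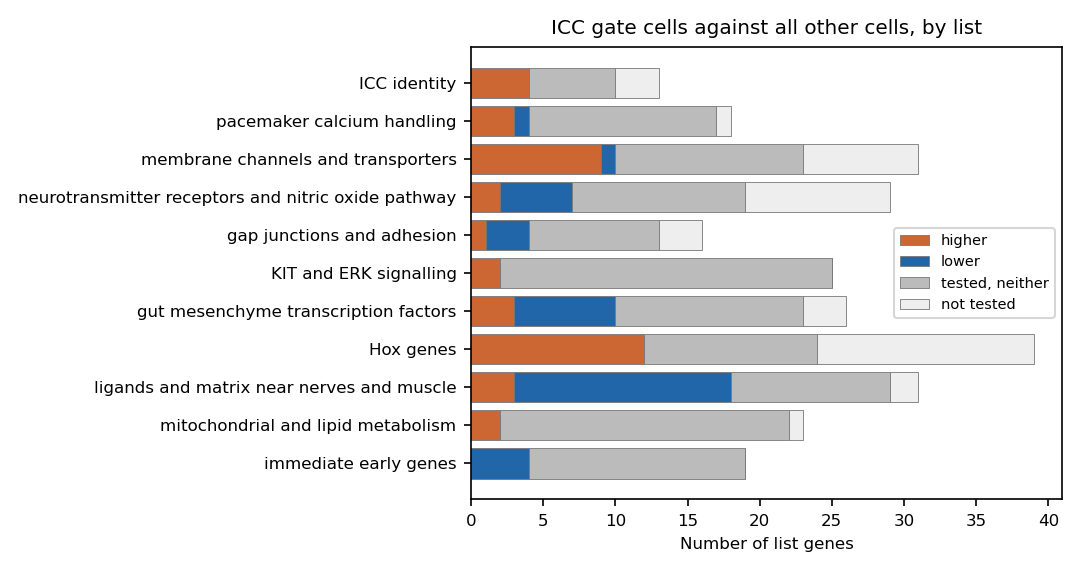
Number of genes of each list that were higher, lower or neither in ICC gate cells against all other cells (edgeR, adjusted p under 0.05 and log2 fold change beyond 1.5), with genes not tested also counted. Hox genes have 12 higher and 0 lower, and ligands and matrix have 3 higher and 15 lower, where 3.3% of all tested genes were higher and 7.86% lower.

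Fibroblast genes were among those with the largest decrease. All 8 fibroblast markers were lower, with a median log2 fold change of -5.23. *Dcn*, the matrix proteoglycan decorin, was at 5.25 CPM in colon replicate 1 and 822 CPM in replicate 2, against 6313 and 9138 CPM in all other cells (-7.23 ± 1.42). *Ly6a*, encoding the surface antigen Sca-1, was at 0 and 19.5 CPM against 1182 and 801 CPM (-7.24 ± 1.36), and the chemokine *Cxcl1* at 0 and 53.5 CPM against 958 and 1996 CPM (-6.83 ± 1.31). The other lower genes with the largest changes that were still detected were *Clec3b*, *Tnfaip6*, *Procr*, *Fbln1*, *Adamdec1*, *Serping1* and *Igfbp3*. Absence of *Pdgfra* was part of the rule, so fibroblasts were kept out of the gate, and these genes are given as a description of what the rule left out. Among genes at 0 UMIs in the 64 colonic members, *Ereg*, an EGF family ligand, was at least 42.2-fold lower, *Prss23* at least 33.1-fold and *Ms4a4d* at least 24.5-fold.

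Immediate early genes were lower in members than in all other cells. The list of 19 summed to 16021.9 and 21774.7 CPM in members against 49117.9 and 58625.1 CPM in all other cells, and to 42274.6 and 32923.1 CPM in contractile gate cells. With the small intestinal cell 4 of 19 were called lower (*Atf3*, *Egr1*, *Egr2* and *Jun*) and in the colon fit 14 of 19, with 0 higher in both, at medians of -2.17 and -2.13. Of all tested genes 7.86% and 8.68% were lower in these fits. *Egr1* was at 714 and 1322.9 CPM against 3823.9 and 4466.4 CPM. These genes are switched on quickly by growth factors and stress.

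Of 22 tested mitochondrial and lipid genes 2 were called, where 11.2% of all tested genes were. *Elovl6*, a fatty acid elongase (200 and 535 CPM against 20.1 and 35.4 CPM, 3.03 ± 0.61), and *Ppargc1a*, a coactivator of mitochondrial genes (36.8 and 53.5 CPM against 1.29 and 1.69 CPM, 4.33 ± 0.57), were higher, and the list had a median of 0.31. The colon fit called 3 of 22 higher and 2 lower (*Hmgcs1* and *Insig1*, genes of sterol synthesis and its control). The mitochondrial share of UMIs was also higher in members, with medians of 4.15% and 5.79% in colon replicates 1 and 2 against 2.14% and 2.39% in other cells. When only cells with at most 5% mitochondrial UMIs were kept, 12 and 19 colonic members remained, and 206 genes were higher and 454 lower. The part of the mitochondrial share in these differences was not tested.

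Smooth muscle is the tissue that ICC pace, so members were also compared with the contractile gate cells of the same libraries. Of 4930 genes tested, 95 (1.93%) were higher and 347 (7.04%) lower in ICC gate cells (8.97% in either direction), and in the colon fit 380 of 9666 (3.93%) were higher and 511 (5.29%) lower (9.22% in either direction). Thus 21.5% of calls were higher in the first fit, and without small intestine replicate 1, which gave the single cell with cytokine transcripts, 43% were (363 higher and 482 lower). As before, a gene could pass the low-count filter of the colon fit through the members alone, and such a gene had to be higher. The counts too rested on both colon libraries. Without colon replicate 1 there were 7 higher and 0 lower, with 160 genes at an unadjusted p under 0.05, and without colon replicate 2 there were 1 and 0, with 336 such genes.

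*Gja1* was higher in members, at 1602 and 987 CPM in members and 9.92 and 13.6 CPM in contractile gate cells, a log2 fold change of 6.49 ± 0.33 in the colon fit (adjusted p = 2.65e-05, edgeR). *Etv1* was at 89.3 and 316 CPM in members against 7.03 and 7.36 CPM (17 and 20 UMIs) in contractile gate cells. It entered the colon fit through the members alone, so it is given without a test. In the fit with the small intestinal cell the largest calls included *Slc38a1* (6.08 ± 0.51), the carbonic anhydrase *Car2* (5.42 ± 0.51), *Satb1* (4.35 ± 0.83), *Amigo2* (4.29 ± 0.63) and *Lrig1* (3.94 ± 0.88). Genes of contraction were lower in members: *Des*, which encodes the muscle filament desmin, was at 15.8 and 19.5 CPM against 763 and 396 CPM (-5.33 ± 1.09), and 5 of the 7 smooth muscle markers that were not part of the gate were called lower. *Actc1* was at 0 UMIs in colonic members and at least 45.9-fold lower, and *Myocd* at least 13.6-fold lower. Contractile gate cells were chosen on *Myh11*, *Cnn1* and *Actg2*, so these genes of contraction describe what that rule took. The hedgehog binding protein gene *Hhip* was at 42 and 4.86 CPM against 1127 and 747 CPM (-5.82 ± 1.16). Of the 6 Hox genes tested here 3 were higher (*Hoxa9*, *Hoxb2* and *Hoxb4*) and 0 lower, where 1.93% and 7.04% of all tested genes were. In the colon fit 8 of 12 were higher, where 3.93% of all tested genes were.

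The members of colon replicate 2 were not uniform. This was seen after the values had been looked at, and is described without a test. Leaving out the cell with epithelial transcripts, 15 of 48 members held *Prkcq* and 33 did not, and of the 33, 23 held *Pcp4* and 10 did not. Of the 15 members with *Prkcq*, 0 held *Pcp4*. Median UMIs were 3861 with *Prkcq* (range 1134 to 6691) and 3822 without it (2046 to 7149), the median mitochondrial share was 4.51% and 6.34%, and the sum of *Kit* and *Ano1* had medians of 12 and 8. Protein kinase C theta is itself a known marker of ICC, and neither set is given a name here.

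Several genes that were high in the members as a whole were found mainly in the set without *Prkcq*. *Pcp4* had 0 UMIs in the 15 members with *Prkcq* and 273 in the other 33 (1980 CPM). *Nog* had 0 and 73 UMIs, *Slc4a4* 0 and 55, *Cckar* 0 and 27, and *Sfrp4*, a secreted WNT inhibitor, 0 and 77. The targets of BMP signalling *Id1* (0 and 151 UMIs), *Id2* (4 and 166) and *Id3* (13 and 324) behaved alike. *Hand1* had 8 and 104 UMIs and *Lrig1* 1 and 69. The 10 members with neither *Prkcq* nor *Pcp4* had *Nog* at 28.9 CPM and *Gucy1a3* at 724 CPM, values nearer to those with *Prkcq*.

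The members with *Prkcq* held more of other genes. *Aspn* and *Dcn*, matrix proteoglycans, were at 1328 and 2440 CPM with *Prkcq* and at 109 and 239 CPM without it. *Spry4* and *Spry1*, feedback inhibitors of receptor tyrosine kinases, were at 610 and 520 CPM against 87 and 109 CPM. *Slc12a2* was at 1202 against 225 CPM, *Gucy1a3* at 807 against 203 CPM, *Pde3a* at 718 against 218 CPM, *Atp2a3* at 413 against 116 CPM and *Etv1* at 592 against 232 CPM. *Kit* and *Ano1* were present in both sets (1669 and 1615 CPM with *Prkcq*, 1001 and 1175 CPM without), as were *Gja1* (933 and 1095 CPM) and *Rgs5* (1992 and 1799 CPM). As lists, the ICC identity genes summed to 5562.3 CPM with *Prkcq* and 2459 CPM without it, the KIT and ERK genes to 3678.3 and 1748.1 CPM, and the fibroblast markers to 6728.6 and 1392.7 CPM, while immediate early genes summed to 10604.3 and 25162.7 CPM. *Prkcq* is itself in the identity list, and by the split it gave 646 CPM of that sum in one set and 0 in the other.

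No member of colon replicate 1 held a UMI of *Prkcq*. It was at 0 UMIs in these 15 members (0%, exact 95% Clopper-Pearson upper limit 21.8%), at a floor of 3 counts of 15.8 CPM, and 14 of 15 held *Pcp4*. The limit is for detection only, since a member without a UMI may still carry the transcript. In colon replicate 1 the levels of *Pcp4* (1975 CPM), *Id3* (2416 CPM), *Dcn* (5.25 CPM), *Etv1* (89.3 CPM), *Gucy1a3* (89.3 CPM) and the ICC identity list (2274.6 CPM) were nearer to those of the members of replicate 2 without *Prkcq*. With 15 cells from 1 pool of mice, how often the set with *Prkcq* occurs cannot be told from these libraries. *Etv1*, *Slc12a2* and *Atp2a3*, whose differences from all other cells were larger in replicate 2, were all higher in the set with *Prkcq*.

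**Figure D5:**
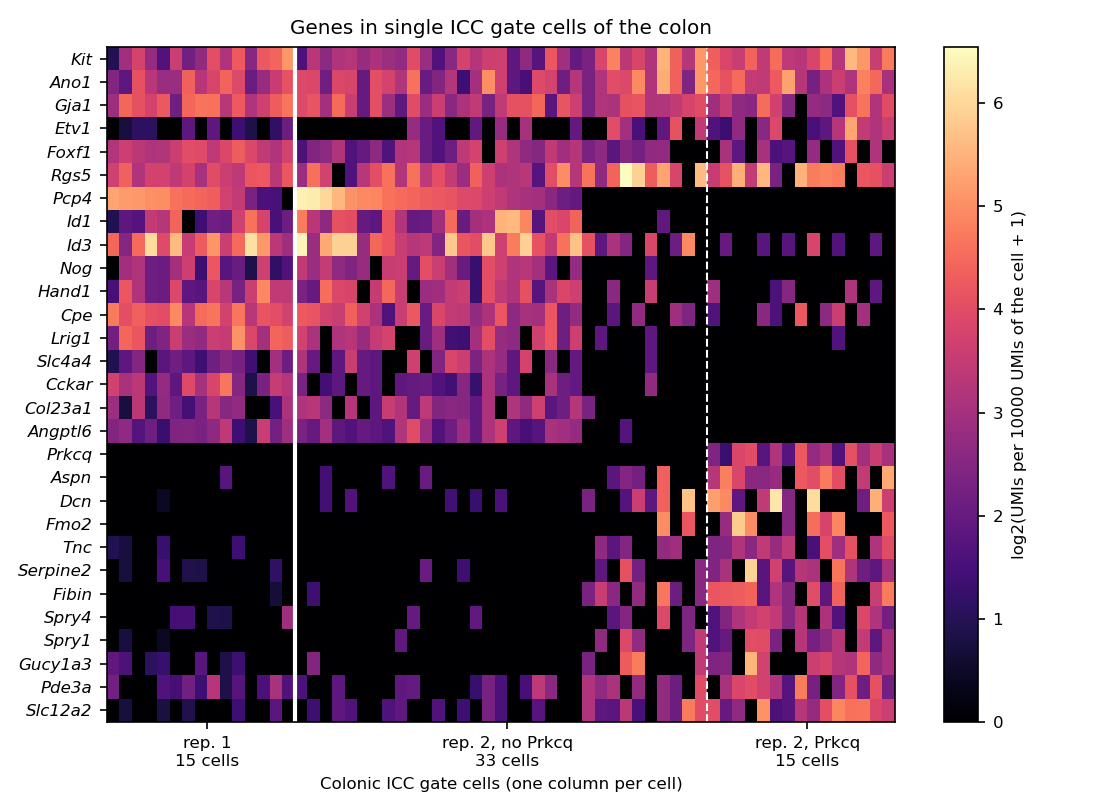
Colour gives log2(UMIs per 10000 UMIs of the cell + 1) for 29 genes (rows) in the colonic ICC gate cells (columns) other than the cell with epithelial transcripts, split into replicate 1 and the members of replicate 2 without and with *Prkcq*. *Kit*, *Ano1*, *Gja1* and *Rgs5* run across both libraries, *Pcp4* and *Nog* fill replicate 1 and most members of replicate 2 without *Prkcq*, and *Aspn*, *Dcn* and *Spry4* are found in 12, 10 and 13 of the 15 members with *Prkcq* and in 7, 11 and 6 of the 33 without it.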

How the data were processed

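The authors sorted MSC from small intestinal and colonic lamina propria, made droplet libraries with a 3′ v3 or a 5′ kit (which library had which is not given in the sources used here) and counted UMIs against mm10 with Cell Ranger 3.0.2 (replicate 1) and 3.1.0 (replicate 2) per the file headers. What the authors deposited are UMI counts for each barcode over 28692 gene rows, not normalized. Depth was 14341443 to 52269372 UMIs per library. Exact 95% Clopper-Pearson intervals and the floor of 3 counts cover counting error only.

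UMIs were summed per library and class and compared with edgeR 4.0.16 (filterByExpr, TMM, robust quasi-likelihood fit, library block) in R 4.3.3, with DESeq2 1.42.0 as an alternative, both tested on simulated counts. The 5 gate genes got no call. Scrublet of scanpy 1.11.5 called doublets, which were kept in the main comparison. The members, gene lists and rules were chosen with earlier results of these data known. Genes named per comparison were the 15 highest and 10 lowest called by log2 fold change with at least 20 UMIs, no gate gene and no unnamed gene model. The same direction was required in every library, but after the values had been seen this was applied to both colon libraries only, since the small intestinal cell is not of their kind. Genes tested only in the colon fit, members of the gene lists, genes of the cell with epithelial transcripts, those of the small intestinal cell and the genes that set members with *Prkcq* apart were also named after their values were seen. The planned tests of colon against small intestine within gate cells, and of that difference against all other cells, were not run, because the small intestinal side would have been 1 cell. Some genes entered the tests and are not reported here.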

Additional observations from a re-analysis of the deposited data

How the results depend on the processing

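Colonic gate cells were more frequent than small intestinal ones under each alternative run (at least 1000 genes, at most 5% mitochondrial UMIs, without doublets, a gate of at least 4 UMIs with both genes, thinned cells and without the cells of other types), with differences of 0.235 to 0.498 percentage points against 0.474, and of 0.359 to 0.59 with 1 library left out.

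For members against all other cells, the 393 higher and 937 lower genes became 197 and 358 with DESeq2, and 206 and 454 with at most 5% mitochondrial UMIs. There were 608 higher with no low-count filter, 251 without the library block and 255 against other cells that lack *Pdgfra*, *Ptprc* and *Pecam1*. Leaving out 1 library gave 145 to 484 higher and 0 to 1062 lower. DESeq2 size factors moved the median log2 fold change over all genes from -0.27 to -0.07 and gave 483 higher and 752 lower. Over all lists, 36 were higher and 36 lower. The higher ones became 18 with DESeq2, 22 with at most 5% mitochondrial UMIs and 14 without the library block, and 10 to 43 were higher and 0 to 50 lower with 1 library left out. Against contractile gate cells, the 95 higher and 347 lower genes became 488 and 658 with no low-count filter, 54 and 211 with at most 5% mitochondrial UMIs, 310 higher with the stricter gate (43.7% of calls, against 21.5%) and 380 higher in the colon fit. With 1 library left out there were 1 to 363 higher and 0 to 482 lower.

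With the stricter gate *Mptx1* fell to -1.20 and *Agr2* to -0.65. With 1 library left out *Atp2a3* ranged from -0.01 to 2.96 and *Etv1* from -0.07 to 1.82, both lowest without colon replicate 2, and *Hoxd13* stood at -0.07 with at most 5% mitochondrial UMIs. The cause was not tested, except that the stricter gate leaves out the cell with epithelial transcripts. Of 84 named genes, 66 lost their call without colon replicate 1, and without colon replicate 2 67 lost it and 2 more turned, where a lone library is assumed to vary like the others.

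Replicate numbers are shared by the intestines. Differences between replicates 1 and 2 correlated over 14578 genes of other cells (r = 0.732), but with 2 pairs the numbers are not shown to pair libraries. With the replicate block 475 genes were higher and 1223 lower. Depth limits rare transcripts: 3 counts over all colonic members are 7.58 CPM.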

Other observations

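*Kit*-positive cells, members included, numbered 31 and 14 in small intestine replicates 1 and 2 and 21 and 65 in colon. In small intestine replicate 1, 19 of the 31 held *Pecam1*, 9 held *Ptprc* and 7 held *Pdgfra*, and in replicate 2, 13 of the 14 held *Pdgfra*. In colon 15 of the 21 and 49 of the 65 were members, and 1 and 4 more held 1 *Kit* UMI, no *Ano1* and none of these genes.

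*Ano1* without *Kit* occurred in both intestines. Cells with 2 or 3 *Ano1* UMIs and no *Kit* numbered 20 and 3 in small intestine replicates 1 and 2 and 38 and 31 in colon, and 7, 0, 14 and 3 cells held at least 4 *Ano1* UMIs. These cells were not members and were not compared further.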
